A study of Mus musculus with 17 samples.

Results

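The 4OHT effect under MEK inhibition was described from 6 of the 17 libraries of this study of new RNA in mouse embryonic stem cells. The 3 MEKi with 4OHT libraries had received a MEK inhibitor (MEKi, 1 µM) together with 250 nM 4-hydroxytamoxifen (4OHT) for 2 h, and the 3 MEKi libraries had received the inhibitor and no 4OHT. They were selected by their column names, and each group holds clones a, b and c. All 6 came from cells of the E14tg2a line (129SV background) in which Erk1 and Erk2 were knocked out and a cDNA for FLAG-ERK2 Q103A put in their place. The same cells stably expressed cRAF-ErT2, a RAF kinase fused to a hormone-binding domain that answers to 4OHT. Every group had spent 24 h before treatment in serum medium with LIF and the FGF receptor inhibitor PD173074 (250 nM), after growth with 2 µM Chir99021. Ethynyl uridine at 5 mM was added for the final 15 min, so that RNA made in that time could be captured. The other libraries used here are 4OHT (n = 3) with its reference DMSO (n = 2), and PP1 with 4OHT (n = 3) with its reference PP1 (n = 3). PP1, at 2 µM, is an inhibitor of the Q103A form of ERK2.

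RAF kinases phosphorylate MEK, and MEK phosphorylates ERK, the kinase that carries the signal to transcription factors in the nucleus. Genes switched on by ERK include immediate early genes and a set of inhibitors that act back on the pathway, among them Sprouty and Spred proteins and MAP kinase phosphatases. In embryonic stem cells FGF signalling through ERK moves cells away from the naive state, which is why MEK inhibitors are used to maintain it. With a MEK inhibitor present, 4OHT can activate the RAF fusion while the step that leads to ERK is inhibited. This comparison asks which transcription changes 4OHT brings in that setting. How complete the block was in these libraries was not tested.

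The labels give 0 h of 4OHT for the MEKi libraries and do not say plainly how long the inhibitor alone was present, so that addition of 4OHT and any difference in time with the inhibitor cannot be told apart. The replicates are clones of 1 cell line, and p-values describe the spread between those clones only. The 6 libraries held between 7102570 and 9628690 counts. As a measure of background, CPM per Mb of span was taken at its 5th percentile among 1426 tested genes of 150000 bp or more, which gave 4.83, 9.35 and 2.98 in MEKi with 4OHT, clones a, b and c, against 13.1, 6.23 and 5.70 in MEKi. MEKi with 4OHT b and MEKi a had the highest background of all 17 libraries. A set of 14 high-count loci, Cdk8 and Lars2 among them, took 12.4, 16.1 and 14.4% of counts in MEKi with 4OHT, against 17.7, 32.6 and 15.1% in MEKi. Summed embryonic stem cell markers lay between 3358 and 3597 CPM in MEKi with 4OHT and between 3088 and 3626 CPM in MEKi. All 10 of those markers were detected. The 10 fibroblast markers summed to between 6.47 and 8.81 CPM, against between 7.32 and 9.58 CPM in MEKi, and the 10 primitive endoderm markers to between 518 and 557 CPM, against between 380 and 470 CPM in MEKi. All these marker sums were scaled to library totals without TMM, unlike the gene levels below. TMM factors were between 1.1005 and 1.1431 in MEKi with 4OHT and between 0.86151 and 1.0716 in MEKi. TMM would thus lower the MEKi with 4OHT sums more than the MEKi sums. With TMM, of 16 listed primitive endoderm genes tested, 0 were called higher and 1 lower, with a median log2 fold change of -0.04. The part of background, fibroblasts or primitive endoderm in the results below was not tested.

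With 4OHT under MEK inhibition, 6 of 12 feedback inhibitors of the RAS-ERK pathway were called lower, 18 of 29 cholesterol synthesis genes higher and 13 of 24 p53 targets higher. Of 14907 genes tested, 2188 passed an adjusted p of 0.05 (14.7%), of which 1140 were higher (7.65%) and 1048 lower (7.03%). Changes were mostly modest: 32 of the called genes were at least 2-fold higher (0.215% of those tested) and 172 at least 2-fold lower (1.15%). The 3 MEKi with 4OHT libraries lay above the 3 MEKi libraries in 2662 genes (17.9%) and below them in 2095 (14.1%). A stricter set of 580 calls is termed held calls here. They also passed with clone as a replicate block, with library totals as the scaling and with each of the 6 libraries left out in turn. These were 26.5% of all calls, 397 of the 1140 higher and 183 of the 1048 lower. Library totals as the only scaling brought the median over all tested genes to 0.17 in log2 fold change and gave 937 genes higher and 193 lower; relative to that median, the list medians were -0.56 for feedback inhibitors, 0.36 for p53 targets and 0.53 for cholesterol synthesis, against -0.55, 0.35 and 0.52 relative to all genes with TMM. Levels are CPM, counts scaled to the library total after TMM, listed in the order of clones a, b and c. Adjusted p-values are Benjamini-Hochberg values of edgeR's quasi-likelihood test over all genes tested, and fold changes are log2 values of MEKi with 4OHT over MEKi with an approximate standard error. In bulk libraries like these, fewer cells making a transcript and less new RNA per cell cannot be told apart.

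**Figure D1:**
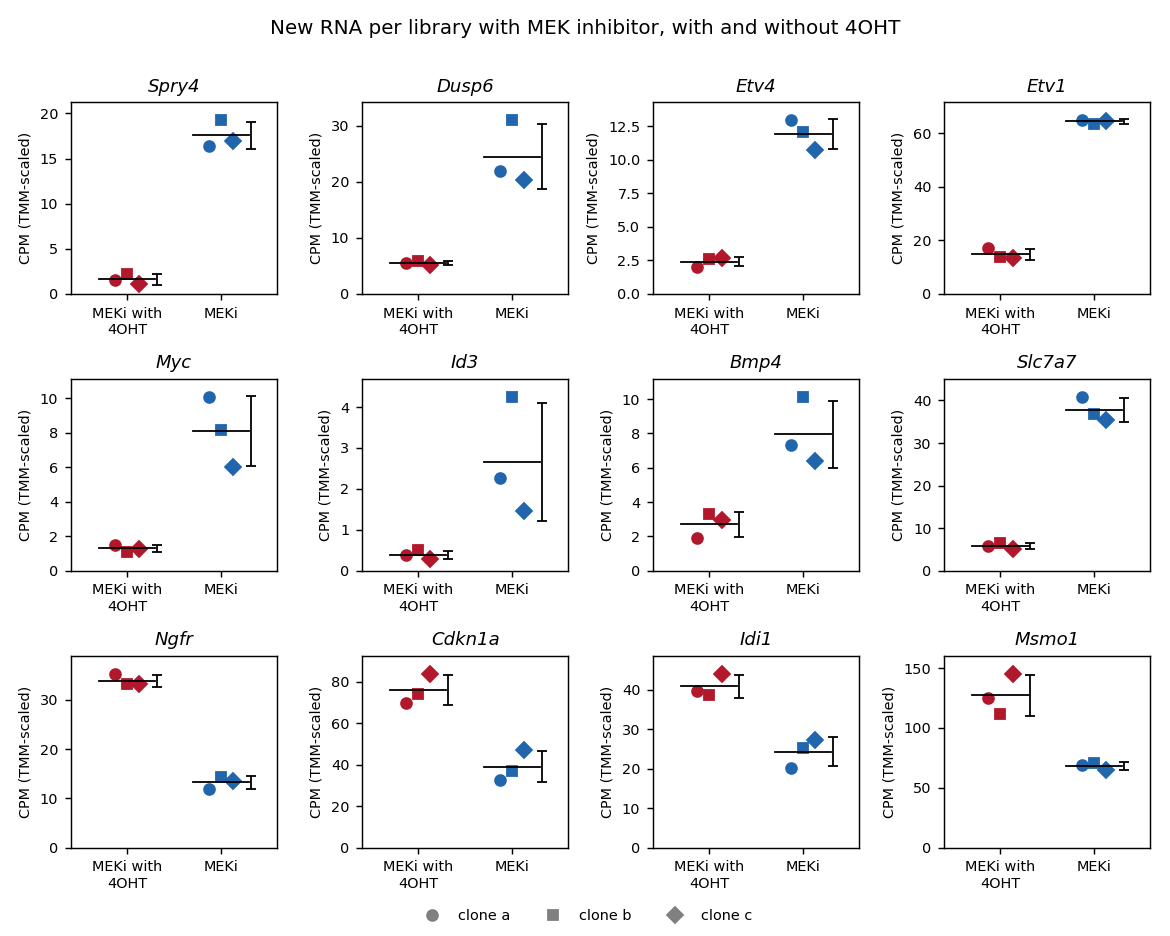
Level of new RNA (CPM, TMM-scaled, linear axes from 0) of 12 genes in each of the 6 libraries, with MEKi with 4OHT on the left and MEKi on the right of each panel; symbols mark clones and bars the group mean and SD. Spry4, Dusp6, Etv4, Etv1, Myc, Id3, Bmp4 and Slc7a7 are lower in all 3 MEKi with 4OHT libraries, and Ngfr, Cdkn1a, Idi1 and Msmo1 are higher in all 3.

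Genes that the constructs concern were measured first. Mapk3, the gene of ERK1, had 7.599, 16.3 and 14.5 CPM in MEKi with 4OHT and 8.58, 13.6 and 11.9 CPM in MEKi, with overlapping groups (adjusted p = 0.7). For Esr1, the oestrogen receptor gene from which ErT2 domains derive, the levels were 17.4, 21.9 and 19.2 CPM in MEKi with 4OHT and 28.01, 27.8 and 17.9 CPM in MEKi (adjusted p = 0.44). A table of counts per gene symbol cannot separate transcripts of a cDNA or a fusion from those of the endogenous locus, nor show which part of a knocked-out gene gave the counts. Of 33 core RAS, RAF, MEK and ERK pathway genes tested, 3 were called higher and 3 lower, 18.2% against 14.7% of all genes. Their median log2 fold change was -0.04, against 0.00 over all genes.

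The feedback list was called lower in part. Of 12 measured members of the Sprouty, Spred and related list, 6 were called lower and none higher, against 7.03% of all genes called lower, and the list's median log2 fold change was -0.55. Spry4 (ENSMUSG00000024427.7, chr18:38586247-38601415, minus strand, mm10) encodes a Sprouty protein, an inhibitor of signalling from receptor tyrosine kinases to ERK. Its level was 1.52, 2.196 and 1.08 CPM in MEKi with 4OHT, against 16.4, 19.3 and 16.98 CPM in MEKi. Every MEKi with 4OHT library was far below every MEKi library, a 10.9-fold lower level (1.598 ± 0.563 against 17.6 ± 1.53 CPM, mean ± SD, n = 3 each; log2 fold change -3.44 ± 0.17, adjusted p = 2.5e-12), which put Spry4 first among the falls that the naming rule picked. Spry2, a second Sprouty gene, had 13.2, 14.5 and 13.4 CPM with 4OHT and MEKi and 31.3, 35 and 34.3 CPM with MEKi. Its groups were also apart, with little spread inside each (-1.29 ± 0.10, adjusted p = 2.3e-09). Spred1, which recruits neurofibromin to switch off RAS, had 39.8, 36.4 and 37.1 CPM in MEKi with 4OHT and 99.05, 108 and 118 CPM in MEKi. This was a 2.87-fold lower level with no overlap (-1.52 ± 0.08, adjusted p = 1.3e-11). Spred2 (-0.66), Spred3 (-0.68) and Il17rd (-0.70), an antagonist of FGF receptor signalling, were called lower too. With library totals as the scaling these 3 were not called (adjusted p = 0.083, 0.21 and 0.056), and Spred3, which overlaps Ggn, also lost its call without MEKi with 4OHT a, MEKi with 4OHT b, MEKi b or MEKi c (adjusted p between 0.095 and 0.21). Errfi1, an inhibitor of EGF receptors, had 32.7, 30.3 and 35.3 CPM in MEKi with 4OHT and 29.9, 26.5 and 30.8 CPM in MEKi and was not called.

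Among 11 MAP kinase phosphatases tested, 2 fell and none rose, 18.2% called against 14.7% of all genes. Dusp6 (ENSMUSG00000019960.8, chr10:99263231-99267489, plus strand), a cytoplasmic phosphatase specific for ERK, had 5.51, 5.89 and 5.196 CPM in MEKi with 4OHT, against 21.95, 31.1 and 20.4 CPM in MEKi. The 3 values with 4OHT were nearly the same in all clones, 4.34-fold below the MEKi mean (-2.12 ± 0.14, adjusted p = 4e-10). Dusp4, a nuclear phosphatase of the same family, had 4.94, 5.49 and 5.196 CPM in MEKi with 4OHT and 10.7, 12.9 and 8.05 CPM in MEKi, a lower level without overlap (-0.98 ± 0.17, adjusted p = 0.00038). Dusp5 reached 4.18, 5.69 and 4.41 CPM in MEKi with 4OHT and 5.17, 8.51 and 5.72 CPM in MEKi, with overlapping groups, and was not called (adjusted p = 0.12). For Dusp1 the levels were 12.5, 12.4 and 17.1 CPM in MEKi with 4OHT and 15.4, 17.2 and 15.4 CPM in MEKi, also overlapping. The 9 members not called ranged from -0.41 to 0.86 in log2 fold change.

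ETS transcription factors bind the GGAA core found at many ERK-responsive genes, and the PEA3 group of them (Etv1, Etv4 and Etv5) is itself switched on by FGF signalling. All 3 PEA3 members fell. Etv4 had 1.99, 2.595 and 2.65 CPM in MEKi with 4OHT and 13, 12.1 and 10.8 CPM in MEKi. That is a 4.92-fold lower level in MEKi with 4OHT, with no overlap (-2.3 ± 0.16, adjusted p = 6.7e-10). Etv1 had 17.1, 13.8 and 13.4 CPM in MEKi with 4OHT and 65.1, 63.5 and 64.8 CPM in MEKi, where the 3 clones gave nearly the same value. Its log2 fold change was -2.12 ± 0.12 (adjusted p = 1.4e-11). Etv5 had 184, 165 and 144 CPM in MEKi with 4OHT and 308, 316 and 305 CPM in MEKi, a smaller fall (-0.91 ± 0.07, adjusted p = 5.9e-09). Etv6, a repressor of the ETS family, was lower as well (88.8 ± 5.53 against 179 ± 12.7 CPM, -1.01 ± 0.09, adjusted p = 2.9e-08), while Etv3, another repressor, was higher, at 32.6, 33.04 and 32.8 CPM in MEKi with 4OHT against 20.2, 22.6 and 22.7 CPM in MEKi (0.59 ± 0.10, adjusted p = 0.00024). In all, 5 of 17 ETS genes tested fell and 2 rose, against 7.03 and 7.65% of all genes. The other fall, Elk3 (-0.70), was not called with library totals (adjusted p = 0.11) or without both libraries of highest background (0.064), and the second rise, Ets2 (0.32), was lost without MEKi with 4OHT b, MEKi with 4OHT c, MEKi a or MEKi b (adjusted p between 0.051 and 0.095).

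Immediate early genes, which cells transcribe within minutes of ERK activation without new protein, did not move as a group. Of 34 tested, 4 fell and 3 rose (20.6% called, against 14.7% of all genes), and the median log2 fold change was 0.01. Egr1 (ENSMUSG00000038418.7, chr18:34859823-34864984, plus strand), a zinc finger factor often read as an ERK reporter, had 0.9498, 1.198 and 1.57 CPM in MEKi with 4OHT, against 7.19, 5.56 and 3.59 CPM in MEKi. All MEKi with 4OHT libraries were lower, at low levels on both sides (-2.09 ± 0.31, adjusted p = 0.00014). Phlda1 had 0.7599, 0.599 and 1.18 CPM in MEKi with 4OHT and 2.397, 2.45 and 1.84 CPM in MEKi (-1.35 ± 0.28, adjusted p = 0.0017, and 0.064 without the pair of high-background libraries). Zfp36l1, an RNA-binding protein that promotes decay of messages with AU-rich elements, had 24.03, 23.95 and 24.6 CPM in MEKi with 4OHT and 42.8, 57.2 and 51.03 CPM in MEKi. It was thus 2.07-fold lower, with groups apart (-1.05 ± 0.10, adjusted p = 1.2e-07). The 3 that rose were Nr4a1, a nuclear receptor (35.3 ± 5.06 against 25.4 ± 1.31 CPM, adjusted p = 0.004), and Btg2 and Plk2, which are also p53 targets and are described with them. Fos and Junb encode subunits of the AP-1 factor. Fos had 1.23, 1.397 and 1.96 CPM in MEKi with 4OHT and 2.65, 0.654 and 1.46 CPM in MEKi, low and spread values at which a change could be missed. Junb, which overlaps Prdx2, had 10.5, 13.2 and 12.4 CPM in MEKi with 4OHT and 9.46, 13.1 and 11.8 CPM in MEKi. Neither was called (adjusted p = 0.9 and 0.8), and both sets of values overlapped between groups.

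Myc, the growth regulator, fell to 1.52, 1.098 and 1.27 CPM in MEKi with 4OHT, against 10.1, 8.18 and 6.02 CPM in MEKi. The lowest MEKi value was above the highest MEKi with 4OHT value by a wide margin (6.08-fold lower mean, -2.6 ± 0.27, adjusted p = 4.9e-07; ENSMUSG00000022346.15, chr15:61985391-61990374). Its relative Mycn, which embryonic stem cells also use, had 48.1, 55.99 and 39.4 CPM in MEKi with 4OHT and 75.6, 108 and 80.8 CPM in MEKi. This fall was smaller in log2 terms and also without overlap (-0.88 ± 0.13, adjusted p = 0.00011). Max, the partner that both need to bind DNA, was higher instead, at 97.1, 92.03 and 108 CPM in MEKi with 4OHT against 69.5, 68.5 and 71.6 CPM in MEKi (0.50 ± 0.08, adjusted p = 0.00016). Across 12 MYC network genes, 2 were higher and 3 lower, 41.7% called against 14.7% of all genes. The calls of Mga, a repressive partner of Max, and of Mxd1, a MYC antagonist, were lost with library totals (adjusted p = 0.54 and 0.053), that of Mxd1 also without MEKi with 4OHT a or c or MEKi a or c (adjusted p between 0.059 and 0.17).

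The lists of ligands and receptors upstream of RAS had 20, 33.3 and 20.8% of members called (FGF, EGF and other receptors), against 14.7% of all genes, in both directions and on small numbers. Among 15 FGF ligands, receptors and binding proteins, 1 was higher and 2 lower. Fgf4, the FGF that stem cells secrete, had 322, 307 and 314 CPM in MEKi with 4OHT, against 240.2, 273 and 236 CPM in MEKi, a 1.26-fold higher level that was called (adjusted p = 0.0086) but not without MEKi with 4OHT a or MEKi c (adjusted p = 0.069 and 0.092). Of 9 EGF family genes, 1 was higher and 2 lower. Nrg1, a ligand of ERBB receptors with a span of 1069479 bp, had 18.1, 24.1 and 12.2 CPM in MEKi with 4OHT and 47.2, 33.04 and 33.1 CPM in MEKi (-1.06 ± 0.22, adjusted p = 0.0048). In the list of 24 other growth factor receptors 1 rose and 4 fell. Ngfr (ENSMUSG00000000120.6, chr11:95568818-95587735, plus strand), the p75 receptor of neurotrophins, had 35.3, 33.2 and 33.1 CPM in MEKi with 4OHT, against 11.9, 14.4 and 13.5 CPM in MEKi. The groups were tight and far apart, 2.57-fold (1.36 ± 0.14, adjusted p = 3e-07). The receptor genes that fell, Kdr, Ntrk2, Igf1r and Kit, were not called with library totals (adjusted p between 0.085 and 0.23); without MEKi a, Kdr and Ntrk2 were not called either (adjusted p = 0.16 and 0.23), nor were they without MEKi with 4OHT c (0.096 and 0.14), nor Ntrk2 without MEKi with 4OHT a (0.052).

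BMP signalling raises Id genes, which keep embryonic stem cells from neural differentiation. Of 27 genes of this pathway tested, 6 fell and 1 rose, against 7.03 and 7.65% of all genes. Id3 had 0.3799, 0.499 and 0.294 CPM in MEKi with 4OHT, against 2.27, 4.25 and 1.46 CPM in MEKi. The MEKi with 4OHT values rest on 4, 5 and 3 counts, and the fold change of -2.62 ± 0.39 (adjusted p = 6e-05) is correspondingly imprecise, though the groups did not overlap. Bmp4, the ligand, had 1.9, 3.29 and 2.94 CPM in MEKi with 4OHT and 7.32, 10.1 and 6.404 CPM in MEKi. It was 2.86-fold lower (-1.52 ± 0.23, adjusted p = 6.4e-05) and overlaps the predicted gene Gm15217. Smad7, an inhibitory SMAD, had 227, 206 and 265 CPM in MEKi with 4OHT and 386, 401 and 426 CPM in MEKi, with no overlap (-0.80 ± 0.09, adjusted p = 9.3e-07). Id4 (-0.83), Smad6 (-0.56) and the decoy receptor Bambi (-0.55) were called lower but not with library totals (adjusted p = 0.065, 0.16 and 0.21). Bmp7 was the member called higher (19.8 ± 0.526 against 12.1 ± 2.96 CPM, adjusted p = 0.02), a call lost without any of 4 libraries, MEKi with 4OHT a or c and MEKi a or b (adjusted p between 0.057 and 0.091).

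The remaining falls named by size belong to no single one of these lists. Slc7a7, a subunit of a transporter for cationic amino acids, had 5.89, 6.49 and 5.196 CPM in MEKi with 4OHT, against 40.9, 36.8 and 35.5 CPM in MEKi. This 6.43-fold difference was much larger than the spread in either group (-2.68 ± 0.14, adjusted p = 8.4e-12), with the limit that Slc7a7 overlaps Oxa1l. Sh2d4b, an SH2-domain protein, had 9.97, 9.38 and 11.4 CPM in MEKi with 4OHT and 55.5, 44 and 56.8 CPM in MEKi (-2.35 ± 0.17, adjusted p = 8.2e-09). Rerg, a RAS-like GTPase that overlaps 4930480K02Rik, had 3.704, 2.89 and 1.96 CPM in MEKi with 4OHT and 13.5, 12.4 and 18.05 CPM in MEKi (-2.38 ± 0.19, adjusted p = 8.2e-09). Both were lower in all 3 clones, as the naming rule required. Spink1, a protease inhibitor, had 1.9, 2.495 and 1.67 CPM with 4OHT and MEKi and 11.6, 12.1 and 14.4 CPM with MEKi (6.29-fold lower, adjusted p = 3.6e-07), and Myo1f, an unconventional myosin, 1.52, 1.996 and 0.882 and 8.33, 7.197 and 7.66 CPM (5.25-fold lower, adjusted p = 1.9e-06). Inhbb, the activin beta B subunit, was at 0.909 ± 0.364 CPM in MEKi with 4OHT and 4.05 ± 1.08 CPM in MEKi (mean ± SD, -2.1 ± 0.40, adjusted p = 0.00079). Several long genes were in this set. Enox1, an NADH oxidase gene spanning 564998 bp, had 83.9, 79.8 and 65.5 CPM in MEKi with 4OHT and 333, 353 and 285 CPM in MEKi (-2.08 ± 0.15, adjusted p = 2.4e-07). Zfp423, a zinc finger factor spanning 297786 bp, had 56.2, 53.8 and 51.96 CPM in MEKi with 4OHT and 229, 216 and 205 CPM in MEKi (-2.0 ± 0.15, adjusted p = 3.9e-07). Nrp2, a receptor for semaphorins and VEGF, had 6.93, 11.98 and 9.51 CPM in MEKi with 4OHT and 29.02, 44 and 39.9 CPM in MEKi (-1.99 ± 0.22, adjusted p = 2.6e-05). Ccdc3, Enpp3, Tfpi and Slc6a5 completed the 20, with log2 fold changes of -2.05, -2.05, -2.0 and -1.99.

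Pluripotency genes were called lower more often than higher. Of 22 naive pluripotency genes tested, 9 were called lower and none higher, against 7.03 and 7.65% of all genes, with a median log2 fold change of -0.21, and 5 of the 9 were held calls. Without both libraries of highest background, and with library totals, 5 were called, and without MEKi with 4OHT b 6. Dppa2, a chromatin protein of early embryos, had 15.8, 20.5 and 17.3 CPM in MEKi with 4OHT, against 42.6, 40.7 and 39.2 CPM in MEKi. The groups were apart by more than the largest spread within either (-1.2 ± 0.10, adjusted p = 2.3e-08). Tdh, the threonine dehydrogenase on which mouse stem cells depend, had 117, 97.3 and 139.8 CPM in MEKi with 4OHT and 225, 257 and 276 CPM in MEKi (-1.1 ± 0.13, adjusted p = 1.5e-05). Klf5 had 148, 139.5 and 139 CPM in MEKi with 4OHT and 249, 269 and 249 CPM in MEKi (-0.84 ± 0.07, adjusted p = 8.2e-09). Both are held calls without overlap. Prdm14, a repressor of FGF receptor expression, had 36.4, 30.2 and 34.4 CPM in MEKi with 4OHT and 59.1, 51.7 and 60.2 CPM in MEKi (-0.76 ± 0.11, adjusted p = 6.1e-05), and Nr0b1 fell by 0.72 on the log2 scale. Nanog went the other way without being called: its 464, 403 and 462 CPM in MEKi with 4OHT all exceeded the 348, 357 and 336 CPM in MEKi (0.35 ± 0.12, adjusted p = 0.058). In 6 of 17 alternative analyses the rise of Nanog did pass the threshold. Klf4 was called lower by a narrow margin (-0.22 ± 0.07, adjusted p = 0.042), a call lost on leaving out any of 5 libraries.

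Core pluripotency genes showed 5 of 12 called lower and none higher, where all genes gave 7.03 and 7.65%, with a median of -0.32. None was a held call, where 183 of all 1048 genes called lower were. Pou5f1, which encodes OCT4, had 119, 112 and 127 CPM in MEKi with 4OHT, against 103, 174 and 118 CPM in MEKi. The wide MEKi values enclosed the others and the gene was not called (adjusted p = 0.79). Sox2 had 158, 156 and 172 CPM in MEKi with 4OHT and 179, 216 and 185 CPM in MEKi, all lower but not called (adjusted p = 0.09). Rif1 and Sall1 fell by 0.49 and 0.50 on the log2 scale and were not called with library totals (adjusted p = 0.12 and 0.19). With that scaling 1 of the 12 was called, and without MEKi with 4OHT a or c 3 were.

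Genes of the formative and primed epiblast, the state that follows the naive one in the embryo, also fell more often than they rose. Of 20 tested, 9 were lower and 1 higher, against 7.03 and 7.65% of all genes, with a median of -0.37. The call of the 1 higher was lost whichever of the 6 libraries was left out. The count of falls was 7 without both libraries of highest background and 5 with library totals. Zic2 had 9.69, 9.78 and 7.45 CPM in MEKi with 4OHT, against 21.6, 21.6 and 15.5 CPM in MEKi. All 3 clones were lower, 2.15-fold in the mean (-1.11 ± 0.16, adjusted p = 2.6e-05). Otx2, a head and epiblast homeobox factor, had 12.2, 10.3 and 15.8 CPM in MEKi with 4OHT and 18.4, 23.1 and 26 CPM in MEKi (-0.82 ± 0.17, adjusted p = 0.0014). Foxd3 had 18.05, 22.5 and 16.5 CPM in MEKi with 4OHT and 34.8, 41.1 and 30.1 CPM in MEKi (-0.88 ± 0.14, adjusted p = 0.00015). Both held, as did Zic5 (-0.93) and Dnmt3l (-0.81), a cofactor of DNA methylation that overlaps Aire. Pou3f1, often used as a formative marker, was at 0.5699, 0.998 and 0.882 CPM in MEKi with 4OHT and 0.379, 0.981 and 0.388 CPM in MEKi and was not called. Among 12 neuroectoderm genes 2 rose and 2 fell, and Pax6 was the held one, with 1.805, 2.69 and 1.47 CPM in MEKi with 4OHT and 5.93, 8.18 and 6.31 CPM in MEKi (-1.75 ± 0.29, adjusted p = 0.00017). Of the primitive endoderm, primitive streak and trophoblast lists, 0 of 16, 1 of 9 and 0 of 12 were called higher and 1, 1 and 0 lower.

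The Notch list was split, with 4 of 23 higher and 2 lower, against 7.65 and 7.03% of all genes. Rbpj, the DNA-binding partner of the Notch intracellular domain, had 406, 375 and 379 CPM in MEKi with 4OHT, against 750.1, 705 and 727 CPM in MEKi. Its fall exceeded the spread in both groups many times over (-0.91 ± 0.08, adjusted p = 5.4e-08; span 191211 bp). Notch4, a receptor, had 9.59, 6.69 and 7.25 CPM in MEKi with 4OHT and 15.6, 20.4 and 18.9 CPM in MEKi (-1.22 ± 0.15, adjusted p = 6.9e-06). Notch1, a receptor too, was higher at 118, 125 and 129 CPM in MEKi with 4OHT against 78.4, 85.5 and 84.5 CPM in MEKi (0.59 ± 0.09, adjusted p = 4.4e-05). Numbl, an adaptor that antagonises Notch, had 100.2, 91.4 and 107 CPM in MEKi with 4OHT and 54.5, 51.5 and 57.6 CPM in MEKi, a held rise (0.86 ± 0.08, adjusted p = 6.7e-08). The rises of Lfng (1.15) and Dtx1 (0.69) did not hold: Lfng lost its call without any of 5 libraries (highest adjusted p = 0.21, without MEKi c) and Dtx1 without MEKi with 4OHT c or MEKi a (adjusted p = 0.086 and 0.066).

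In the LIF and STAT3 pathway, which sustains self-renewal, 3 of 15 genes rose and 4 fell, against 7.65 and 7.03% of all genes. The rises were 1 without MEKi with 4OHT b or c or MEKi c, and the falls 2 without MEKi with 4OHT c. Lifr, the LIF receptor, had 151, 157 and 160.1 CPM in MEKi with 4OHT, against 247, 247 and 263 CPM in MEKi. The fall was uniform over clones (-0.69 ± 0.06, adjusted p = 3.8e-08). Its co-receptor Il6st was lower too (-0.42), though not with library totals (adjusted p = 0.35). Pias3, an inhibitor of STAT3 that overlaps Nudt17, had 28.8, 28.6 and 28.7 CPM in MEKi with 4OHT and 15.5, 15.4 and 18.8 CPM in MEKi (0.78 ± 0.11, adjusted p = 4.5e-05). Of 20 Wnt targets and regulators, 4 fell and none rose, 20% called against 14.7% of all genes. The falls were 2 without MEKi with 4OHT a, MEKi a or MEKi c, 2 without the pair of high-background libraries and 1 with library totals. Lgr4, a receptor of R-spondins, was the held member, with 104, 111 and 109.8 CPM in MEKi with 4OHT and 186, 202 and 203 CPM in MEKi (-0.87 ± 0.09, adjusted p = 1.7e-07).

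Besides Ngfr, the largest rises were of genes with diverse roles. Tgfb1i1, a focal adhesion LIM protein, had 3.799, 4.39 and 2.84 CPM in MEKi with 4OHT, against 1.14, 1.31 and 1.36 CPM in MEKi. Although low, its groups did not overlap (1.52 ± 0.31, adjusted p = 0.0015). Padi2, a peptidyl arginine deiminase, had 14.5, 16.97 and 20.3 CPM in MEKi with 4OHT and 6.94, 8.83 and 6.89 CPM in MEKi (1.21 ± 0.20, adjusted p = 0.00016). Gadd45b, a stress-induced growth arrest gene, had 17.95, 19.3 and 21.1 CPM in MEKi with 4OHT and 7.82, 8.83 and 10.4 CPM in MEKi (1.1 ± 0.16, adjusted p = 4.2e-05). In both, every MEKi with 4OHT library exceeded every MEKi library. Kif1a, a kinesin motor of axonal transport, had 22.1, 24.7 and 24.9 CPM in MEKi with 4OHT and 11.4, 10.1 and 12.4 CPM in MEKi (1.07 ± 0.14, adjusted p = 1.6e-05), and Zfp385a, a zinc finger protein that binds p53, 36, 30.1 and 36.7 and 17.8, 15.05 and 16.9 CPM (1.04 ± 0.14, adjusted p = 1.8e-05). Rgma, a co-receptor of BMPs that overlaps Gm44758, had 45.97, 35.5 and 52.7 CPM in MEKi with 4OHT and 22.2, 17.2 and 29.7 CPM in MEKi (0.94 ± 0.21, adjusted p = 0.0061). The other rises in this set were Cacng5 (1.32), Gng13 (1.19), Mfsd12 (1.15), Tmem205 (1.0), Ebf4 (0.99), Ttll1 (0.95) and Efna3 (0.94); Gng13 overlaps Chtf18, Mfsd12 overlaps Fzr1 and Tmem205 overlaps Ccdc159, so that their values are uncertain.

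Of the p53 list, 13 of 24 genes were called higher with 4OHT under MEK inhibition. p53 is the transcription factor that answers DNA damage and other stresses with growth arrest, repair or cell death. The remaining 11 comprised 1 called lower and 10 not called; over all genes 7.65% were called higher and 7.03% lower. The median log2 fold change was 0.36, and 9 of the rises were held. Cdkn1a (ENSMUSG00000023067.14, chr17:29090976-29100727, plus strand), the p21 inhibitor of cyclin-dependent kinases, had 69.7, 74.2 and 83.9 CPM in MEKi with 4OHT, against 32.7, 37.1 and 47.3 CPM in MEKi. The ranges of the groups were apart (1.93-fold, 0.95 ± 0.14, adjusted p = 0.00011). Mdm2, the ubiquitin ligase that degrades p53, had 371, 367 and 353 CPM in MEKi with 4OHT and 251, 258 and 272 CPM in MEKi (0.48 ± 0.07, adjusted p = 1.7e-05). Plk2, a polo-like kinase, had 52.5, 56.3 and 50.8 CPM in MEKi with 4OHT and 30.8, 34.2 and 31.1 CPM in MEKi (0.74 ± 0.13, adjusted p = 0.00033). Both changes exceeded the spread among clones. Btg2, an antiproliferative cofactor, had 25.5, 31.6 and 29.4 CPM in MEKi with 4OHT and 18.7, 16.4 and 18.3 CPM in MEKi (0.69 ± 0.13, adjusted p = 0.0005). Tnfrsf10b, a death receptor, had 63.5, 67.97 and 69.1 CPM in MEKi with 4OHT and 46.2, 48.4 and 43.6 CPM in MEKi (0.54 ± 0.09, adjusted p = 0.0001). Phlda3, Polk, Aen and Trp53inp1 were the other held rises, with log2 fold changes of 0.52, 0.43, 0.38 and 0.30. Bbc3, which encodes PUMA, and Ccng1 lay above MEKi in all 3 libraries but were not called (adjusted p = 0.066 and 0.16; with clone as a replicate block Bbc3 was, adjusted p = 0.049). The one fall was Trp53 itself (101 ± 6.69 against 139.8 ± 14.6 CPM, -0.47 ± 0.11, adjusted p = 0.0045), which was not called with library totals (adjusted p = 0.18). Without both libraries of highest background 9 of the list were called higher and 1 lower.

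Most cholesterol synthesis genes tested were called higher with 4OHT under MEK inhibition. In this pathway acetyl units are joined to mevalonate, then to squalene, and squalene is closed and trimmed to cholesterol; its genes are driven by SREBP2, a membrane-bound factor released when sterols are low. Of 29 genes tested, 18 were called higher and none lower, against 7.65 and 7.03% of all genes. The list's median log2 fold change was 0.53, and all MEKi with 4OHT libraries lay above all MEKi libraries in 23 of the 29, against 17.9% of all genes.

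Upstream sequence is shown for 3 of the genes that rose, chosen to span the pathway, as the 250 bases before the RefSeq start (GRCm38.p6, the mm10 build, each gene's own strand, 5′ to 3′). Capitals mark CCAAT on either strand (read as ATTGG on the other) and CACCCCAC, the letters of a sterol regulatory element. CCAAT is the sequence bound by NF-Y, known to act beside SREBP factors.
Hmgcs1, chr13:119690101-119690350: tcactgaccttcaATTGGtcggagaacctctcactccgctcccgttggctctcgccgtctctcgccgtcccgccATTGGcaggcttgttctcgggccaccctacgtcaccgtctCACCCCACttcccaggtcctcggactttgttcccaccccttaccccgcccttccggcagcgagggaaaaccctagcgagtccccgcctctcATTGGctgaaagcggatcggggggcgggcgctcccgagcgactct
Idi1, chr13:8885356-8885605: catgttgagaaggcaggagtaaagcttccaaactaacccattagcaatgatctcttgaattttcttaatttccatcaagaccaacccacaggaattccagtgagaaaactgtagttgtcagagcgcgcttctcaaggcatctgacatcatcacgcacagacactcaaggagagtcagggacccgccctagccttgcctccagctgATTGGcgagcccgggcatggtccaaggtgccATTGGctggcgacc
Nsdhl, chrX:72918271-72918520: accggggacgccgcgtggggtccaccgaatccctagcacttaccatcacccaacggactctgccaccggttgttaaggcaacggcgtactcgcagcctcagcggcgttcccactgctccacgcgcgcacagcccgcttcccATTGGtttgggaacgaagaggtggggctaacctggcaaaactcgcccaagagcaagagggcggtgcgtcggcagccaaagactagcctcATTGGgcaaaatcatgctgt

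A promoter was found in the table for 12 of the 18 risen genes, and 15 promoters were listed for these 12. CCAAT on either strand was in 12 of the 15 (80.0%), against 34.7% of the 14476 promoters of tested genes; no match was in 2 of the 3 promoters of Dhcr7 and 1 of the 2 of Pmvk. Counted by gene, each of the 12 had at least 1 promoter with CCAAT, against 5 of 7 list genes not called, 5 of 11 risen p53 targets (45.5%) and 39.9% of the 11322 tested genes with a promoter. CACCCCAC on either strand was in 1 of the 12, Hmgcs1, against 3.48% of those 11322 genes. These matches describe letters in a window and no test was made of them.

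Among genes of early steps, Hmgcs1, the synthase that makes HMG-CoA, had 178, 169.9 and 191 CPM in MEKi with 4OHT, against 98.3, 126 and 105 CPM in MEKi. The groups were separate (0.71 ± 0.18, adjusted p = 0.019), but the call was lost on leaving out any library but MEKi b (adjusted p between 0.058 and 0.093). Idi1, the isomerase that makes the building block of isoprenoids, had 39.8, 38.6 and 44.1 CPM in MEKi with 4OHT and 20.2, 25.4 and 27.3 CPM in MEKi (0.75 ± 0.12, adjusted p = 0.00015). The groups of Idi1 did not overlap. Fdft1, squalene synthase, had 191, 178 and 212 CPM in MEKi with 4OHT and 111, 111 and 127 CPM in MEKi (0.73 ± 0.09, adjusted p = 3.2e-06); it overlaps Ctsb.

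Among genes of later, sterol-modifying steps, Msmo1, a methylsterol oxidase, had 125, 112 and 145 CPM in MEKi with 4OHT, against 69.02, 70.8 and 64.8 CPM in MEKi. The MEKi values were close to each other, and the mean with 4OHT was 1.87-fold higher (0.90 ± 0.11, adjusted p = 3.1e-06). Nsdhl, which acts after Msmo1, had 46.4, 42.02 and 52.8 CPM in MEKi with 4OHT and 25.5, 26.3 and 27.3 CPM in MEKi (0.84 ± 0.11, adjusted p = 1.6e-05). Cyp51, the lanosterol demethylase, which overlaps Akap9, had 82.3, 90.7 and 97.1 CPM in MEKi with 4OHT and 55.01, 60.5 and 64.2 CPM in MEKi (0.59 ± 0.10, adjusted p = 0.00041). Lss, the cyclase that makes lanosterol, was 1.49-fold higher (adjusted p = 0.0052). Stard4, a sterol carrier, is an SREBP target outside the synthesis steps and rose, with 61.3, 51.9 and 62.3 CPM in MEKi with 4OHT and 36.7, 43.2 and 46.3 CPM in MEKi (0.47 ± 0.11, adjusted p = 0.0041).

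Members that were not called ranged from -0.14 to 0.53 in log2 fold change. Sqle, the squalene epoxidase, had 74.6, 73.9 and 76.2 CPM in MEKi with 4OHT, against 55.8, 68.7 and 66.7 CPM in MEKi (adjusted p = 0.23). Insig1, which retains SREBP proteins in the membrane, had 88.5, 89.4 and 105 CPM in MEKi with 4OHT and 58.2, 65.3 and 72.9 CPM in MEKi, all higher but short of the threshold (adjusted p = 0.063). Srebf2, the gene of SREBP2, had 209, 217 and 236 CPM in MEKi with 4OHT and 175, 209 and 187 CPM in MEKi (adjusted p = 0.064). With clone as a replicate block Insig1 and Srebf2 were called (adjusted p = 0.00025 and 0.05). Of the 18 calls 9 were held. The number called was 9 without the pair of high-background libraries, 11 without MEKi with 4OHT c or without MEKi a, between 15 and 18 without any other 1 library, and 20 with clone as a replicate block.

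**Figure D2:**
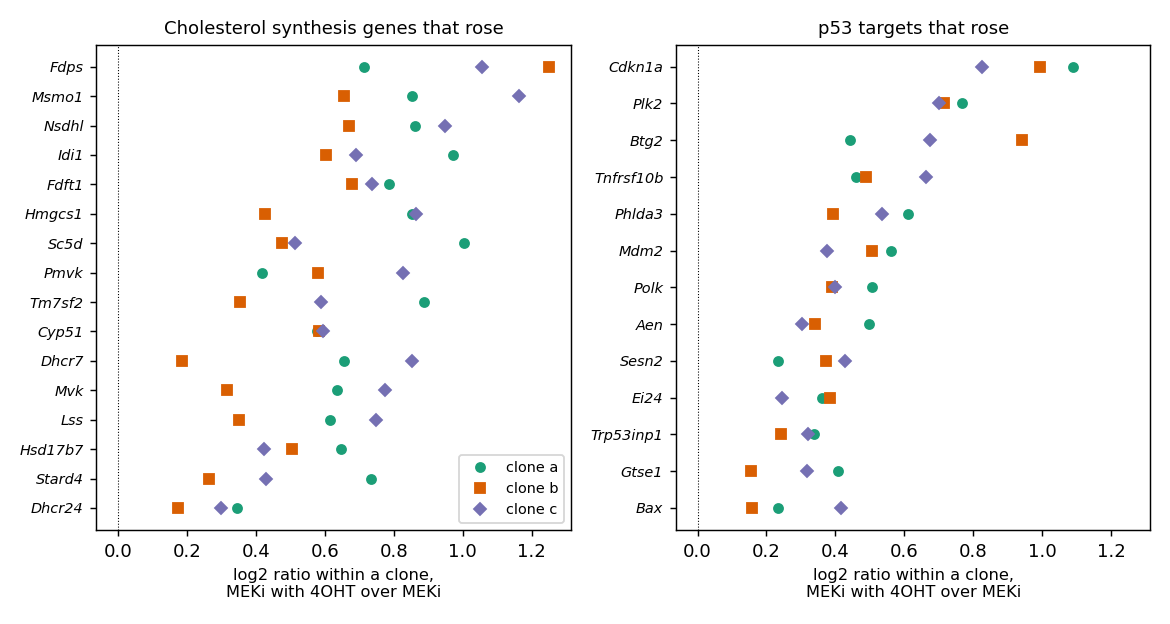
Log2 ratio of MEKi with 4OHT over MEKi inside each clone (prior count 2) for the 18 cholesterol synthesis genes and the 13 p53 targets called higher, 1 row per gene and 1 symbol per clone; 2 of the 18 are not drawn but count in the medians. Since the genes are those called higher, ratios above 0 are a consequence of the choice; the median ratios for the cholesterol genes were 0.724, 0.455 and 0.714 in clones a, b and c, and 0.459, 0.390 and 0.415 for the p53 targets.

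Cell cycle genes were mixed. Of 29 tested, 4 rose and 2 fell, against 7.65 and 7.03% of all genes, and the rises were 2 without MEKi with 4OHT b or c or MEKi a or c. Cdk6, a kinase of the G1 phase with a span of 189524 bp, had 97.7, 91.8 and 91.5 CPM in MEKi with 4OHT, against 226, 225 and 227 CPM in MEKi. The 3 MEKi libraries were almost identical and the level with 4OHT was 2.41-fold lower (-1.27 ± 0.08, adjusted p = 1.2e-10). Ccnd3, a cyclin that partners it and overlaps Bysl, was lower too (47.8 ± 7.64 against 79.7 ± 5.403 CPM, -0.74 ± 0.13, adjusted p = 0.00035). Aurka, a mitotic kinase, was higher, with 107, 107 and 117 CPM in MEKi with 4OHT and 71.4, 81.3 and 70.4 CPM in MEKi (0.57 ± 0.08, adjusted p = 4.8e-05). Plk1 was called higher (0.53), a call lost without any library other than MEKi b (highest adjusted p = 0.12, without MEKi c).

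For each further list, the shares over all genes were 7.65% called higher and 7.03% called lower. Among FOXO and PI3K feedback genes 3 of 23 rose and 2 fell, Ddit4, an inhibitor of mTORC1, being the largest rise (18.4 ± 1.12 against 10.9 ± 0.853 CPM, 0.75 ± 0.18, adjusted p = 0.0064). 4OHT is a ligand of oestrogen receptors, whose part in these changes was not tested. Of 19 oestrogen and xenobiotic response genes 4 fell and none rose, 21.1% called against 14.7% of all genes. Tiparp, a target of the aryl hydrocarbon receptor, had 59.9, 58.99 and 61.7 CPM in MEKi with 4OHT, against 112, 116 and 105 CPM in MEKi (-0.88 ± 0.08, adjusted p = 2.3e-08). Sgk1, a hormone-responsive kinase, had 73.99, 85.7 and 80.9 CPM in MEKi with 4OHT and 136, 171 and 139 CPM in MEKi (-0.89 ± 0.11, adjusted p = 8.6e-06). Of 25 replication-dependent histone genes 3 were lower and none higher (median -0.27), a count that was 0 without MEKi with 4OHT a or MEKi a, 1 without MEKi with 4OHT c or MEKi b and 8 without MEKi c. Of 28 elongation factors and 7SK partners 5 were higher and 2 lower (25%, against 14.7% of all genes), and the rises were 1 without MEKi with 4OHT a or c, 2 without MEKi with 4OHT b, MEKi a or MEKi c and 3 without MEKi b. Ribosome biogenesis had 0 of 32 higher and 2 lower (median -0.05), heat shock 2 of 18 higher and 0 lower, the integrated stress and unfolded protein responses 3 of 28 higher and 2 lower, NRF2 targets 1 of 16 higher and 2 lower, and long-lived abundant mRNAs 0 of 20 in either direction.

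**Figure D3:**
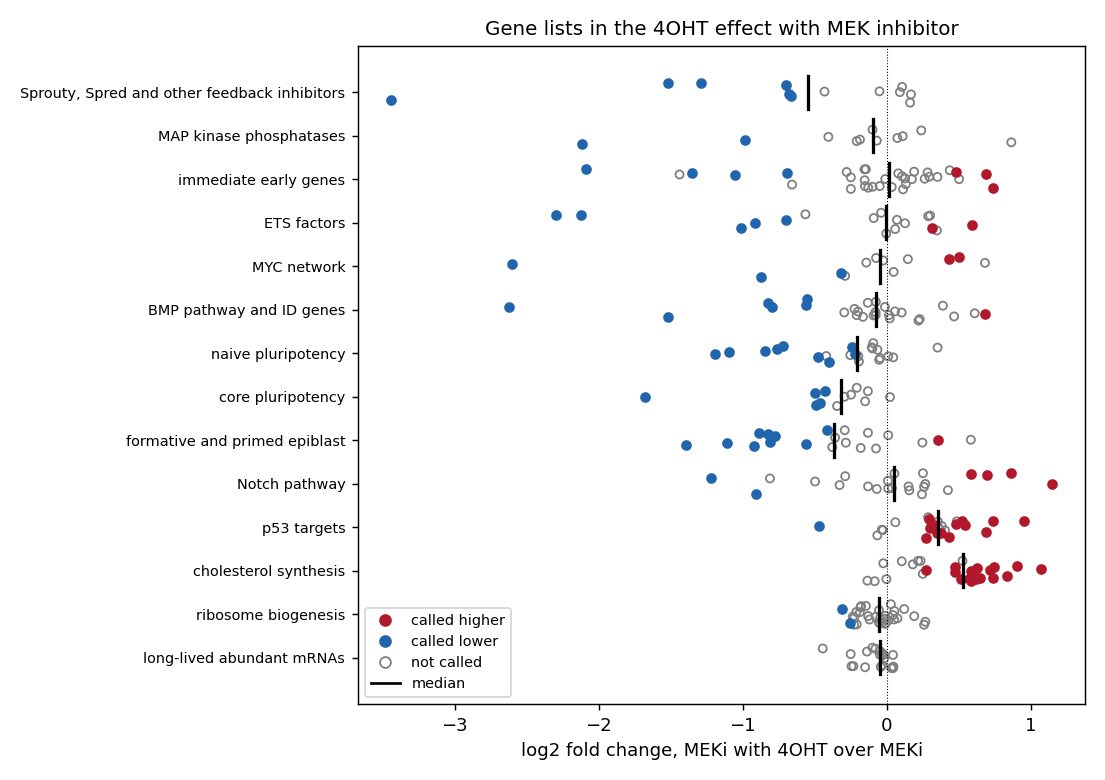
Log2 fold change of MEKi with 4OHT over MEKi for every tested member of 14 gene lists; filled symbols mark genes called higher (red) or lower (blue) at an adjusted p under 0.05, open symbols genes not called, and bars the list median. Feedback inhibitors extend furthest to the left, with Spry4 at -3.44, while the cholesterol list (18 of 29 called higher, median 0.53) and the p53 list (13 of 24, median 0.36) lie to the right of 0.

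The 4OHT effect measured under MEKi differed from that without inhibitor for many genes, as a test of the difference between both effects showed. These comparisons share no libraries. Any difference in time with MEKi enters only the first effect. The interaction therefore cannot tell it apart from a changed response to 4OHT. The interaction was called for 6022 of 14907 genes (40.4%), with the effect under MEKi the higher for 3147 (21.1%) and the lower for 2875 (19.3%). With library totals as the scaling the split was 4754 higher and 742 lower. Spry4 averaged 2320.4 ± 146 CPM in 4OHT and 114 ± 9.27 CPM in DMSO (mean ± SD, n = 3 and 2), a log2 fold change of 4.35, against -3.44 with the inhibitor; the difference of the effects was -7.79 ± 0.19 (adjusted p = 4.1e-19). Dusp6 averaged 278 ± 14.3 CPM in 4OHT and 77.01 ± 9.09 CPM in DMSO, and its effects differed by -3.97 ± 0.18 (adjusted p = 5.3e-14). Egr1 averaged 1853 ± 47.5 CPM in 4OHT and 49.2 ± 11.2 CPM in DMSO, a difference of effects of -7.33 ± 0.34 (adjusted p = 7.9e-12). All 3 thus rose with 4OHT alone and fell with 4OHT under MEKi. Over the feedback list the difference was called lower for 7 of 12 genes and higher for 2, over immediate early genes lower for 27 of 34 and higher for 1, and over ribosome biogenesis lower for 24 of 32 and higher for 0, against 19.3 and 21.1% of all genes. Of 952 genes that 4OHT alone raised at least 2-fold, 110 were higher, 101 lower and 741 (77.8%) not called with MEKi, shares of 11.6 and 10.6% called, against 7.65 and 7.03% of all genes with 85.3% not called. Of 1796 genes that it lowered at least 2-fold, 5.35% were higher and 11% lower with MEKi. Opposite calls with a called difference numbered 246 genes higher under MEKi and lower without inhibitor, and 280 lower under MEKi and higher without inhibitor. The first were 21.6% of genes called higher under MEKi, where 4OHT alone lowered 26.3% of all genes. The second were 26.7% of genes called lower, where it raised 25.7% of all genes. Opposite calls were thus no more frequent than, or close to, the shares over all genes. Padi2 was among those higher under MEKi: it averaged 2.36 ± 1.095 CPM in 4OHT and 7.79 ± 0.898 CPM in DMSO, and the difference of effects was 3.01 ± 0.33 (adjusted p = 1.2e-07).

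Calls in the same direction were also found. Of the 1140 genes raised by 4OHT under MEKi, 44.8% were also called higher in 4OHT against DMSO and 21.6% lower, while over all genes tested these shares were 25.7 and 26.3%. Of the 1048 lowered, 43.7% were also lower and 26.7% higher. For held falls the order was reversed: of 183, 30.1% were also lower in 4OHT against DMSO and 45.9% higher. Of the 397 held rises, 49.6% were also higher and 21.4% lower. For Cdkn1a the 4OHT effect was 0.95 with MEKi and 1.17 without inhibitor (difference -0.22 ± 0.21, adjusted p = 0.43). Msmo1 gave 0.90 with MEKi and 1.2 without (difference -0.30 ± 0.16, adjusted p = 0.13). Spink1 fell in both settings, with log2 fold changes of -2.65 and -2.48 (difference -0.18 ± 0.38, adjusted p = 0.75). These differences were not called, which does not show that the effects were equal. In the cholesterol list 18 of 29 genes rose with MEKi, and 20 rose and 2 fell without inhibitor; the difference was called higher for 3 and lower for 7, against 21.1 and 19.3% of all genes. In the p53 list 13 rose and 1 fell with MEKi, 8 rose and 8 fell without, and the difference was called higher for 11 of 24 and lower for 3. Ei24, a p53-induced gene, was raised under MEKi (0.33, a call lost with library totals, adjusted p = 0.081) and lowered without inhibitor (-0.96; difference 1.29 ± 0.12, adjusted p = 1.1e-08). Polk, a DNA polymerase that copies past lesions, had effects of 0.43 and -0.40 (difference 0.83 ± 0.12, adjusted p = 9.5e-06).

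Addition of PP1, an inhibitor of the Q103A form of ERK2, gave another setting for the same 4OHT treatment. Under PP1, 4OHT was called to raise 7 of 12 feedback genes and to lower 2. It was called to raise 24 of 34 immediate early genes and to lower 1, against 18.4 and 12.8% of all genes. How far PP1 blocked ERK2 in these libraries was not tested. The 4OHT effects with MEKi and with PP1 differed for 1829 genes (12.3%), higher under MEKi for 724 (4.86%) and lower for 1105 (7.41%). Spry4 averaged 775 ± 55.7 CPM in PP1 with 4OHT and 46.5 ± 4.24 CPM in PP1 (mean ± SD, n = 3 each), a rise, so that its effect under MEKi was lower by -7.51 ± 0.18 (adjusted p = 4.6e-19). Slc7a7 showed a similar contrast. It averaged 127 ± 16.6 CPM in PP1 with 4OHT and 33.8 ± 0.287 CPM in PP1 and was called lower only under MEKi among the 3 settings, with a difference of effects of -4.59 ± 0.18 against PP1 (adjusted p = 1.3e-14) and -2.9 ± 0.19 against no inhibitor (adjusted p = 2.6e-11). Cdk6 had effects of -1.27 under MEKi and 0.43 under PP1 (difference -1.7 ± 0.11, adjusted p = 8.7e-11), and Rbpj -0.91 and 0.50 (difference -1.41 ± 0.12, adjusted p = 6.4e-09). The feedback list had 6 of 12 differences lower and 2 higher. By contrast, cholesterol genes rose under PP1 in 22 of 29 cases and none fell, and the difference from MEKi was called lower for 4 and higher for 0. In the p53 list 15 rose and 1 fell under PP1, and the difference was called for 1 gene in each direction out of 24, against 4.86 and 7.41% of all genes. Of the 1140 genes that rose under MEKi, 53.3% also rose under PP1 and 7.11% fell, where all genes tested gave 18.4 and 12.8%. Of the 1048 that fell under MEKi, 30.6% also fell under PP1 and 22.4% rose. Among the 183 held falls, 9.84% also fell under PP1 and 51.9% rose. Opposite calls with a called difference numbered 81 genes higher under MEKi and lower under PP1, and 235 lower under MEKi and higher under PP1. These were 7.11% of the rises and 22.4% of the falls under MEKi. Over all genes, 12.8% were lower and 18.4% higher with 4OHT under PP1.

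**Figure D4:**
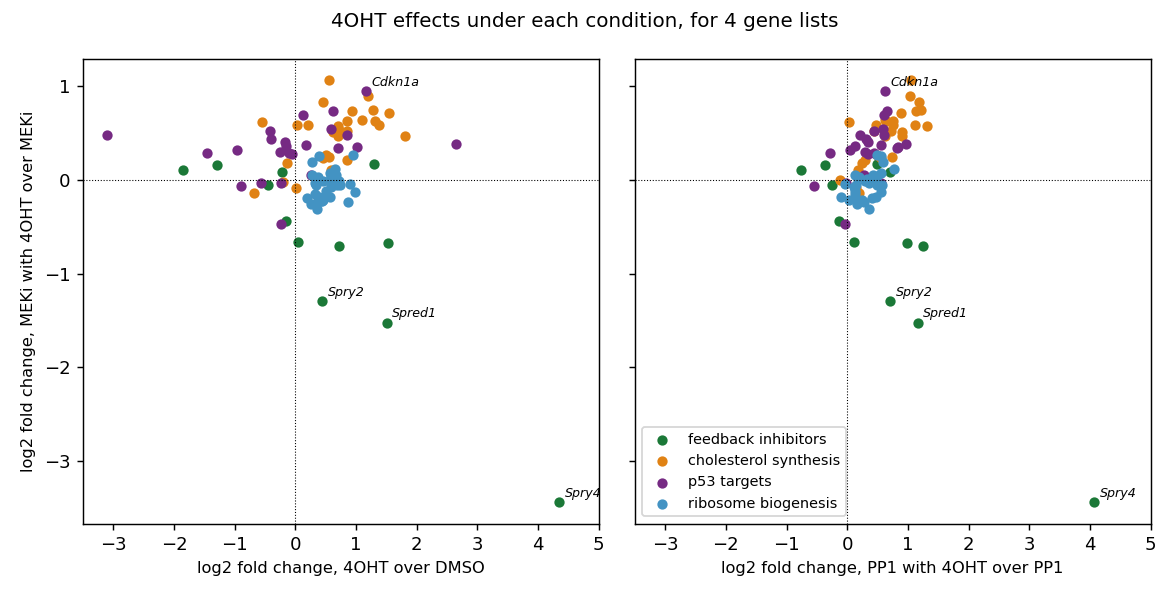
Log2 fold change of MEKi with 4OHT over MEKi (vertical axis) against that of 4OHT over DMSO (left) and of PP1 with 4OHT over PP1 (right), 1 point per tested gene of 4 lists. Spry4 is at the lower right in both panels (-3.44 against 4.35 and 4.07), p53 targets are spread on both sides of 0 in the left panel (8 called higher and 8 lower) and mostly above it in the right (15 and 1), and ribosome biogenesis genes lie near 0 on the vertical axis in both.

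Falls with 4OHT under MEKi were more frequent among genes with a long span on the genome. With genes split by span into 5 bins of equal size, the median log2 fold change was 0.06, 0.09, 0.06, -0.01 and -0.19 from the shortest to the longest bin, and the share called lower was 2.50, 3.21, 5.38, 7.27 and 16.7%. The share called higher was 4.67, 11.5, 12.8, 7.71 and 1.72%. Genes called lower had a median span of 76068 bp and those called higher of 22900 bp, against 27014.5 bp over all genes; for held calls these were 44045 and 23166 bp. Clones differed in this trend. In the longest bin the median ratio within a clone was -0.27 in clone a, -0.02 in clone b and -0.22 in clone c. In clone b, with the flat trend, background was higher in MEKi with 4OHT than in MEKi (9.35 against 6.23 CPM per Mb). In clones a and c, with the steep trend, it was lower in MEKi with 4OHT (4.83 against 13.1 and 2.98 against 5.70). Without MEKi with 4OHT b and MEKi a the medians were 0.03, 0.08, 0.07, 0.02 and -0.15, and the share called lower was 1.25, 1.83, 2.60, 3.65 and 8.15%. In the libraries kept, background was still lower in MEKi with 4OHT (4.83 and 2.98 CPM per Mb in a and c) than in MEKi (6.23 and 5.70 in b and c). Its part in the trend was therefore not tested by leaving out 2 libraries. The 4OHT effects without inhibitor and with PP1 had medians of -0.17 and -0.30 in the longest bin.

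**Figure D5:**
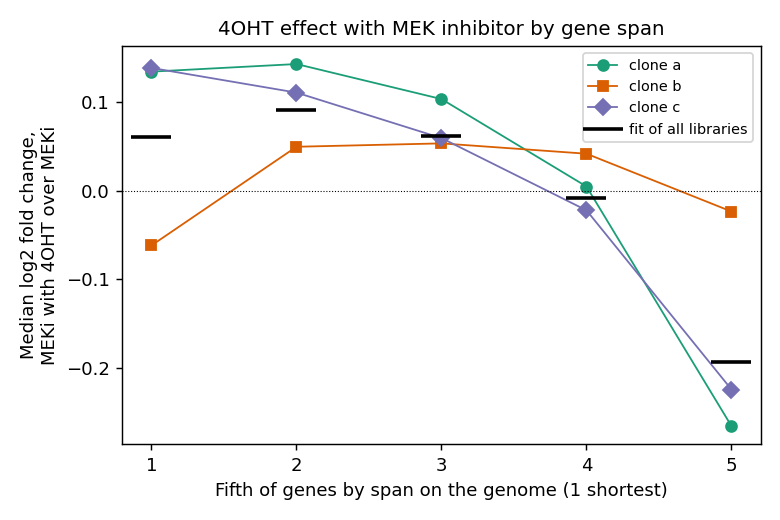
Median log2 fold change of MEKi with 4OHT over MEKi for genes in 5 bins of span, from the shortest (1) to the longest (5), as ratios within each clone (symbols and lines) and from the fit of all libraries (bars). Clones a and c drop to -0.27 and -0.22 in the longest bin and clone b stays at -0.02.

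Of the 20 falls named by size 6 were in the longest bin. Genes outside it included Spry4 (15169 bp), Dusp6 (4259 bp), Etv4 (15630 bp) and Myc (4984 bp), while Enox1, Zfp423, Etv6, Rbpj and Cdk6 are in it. Of the 495 genes of the longest bin called lower, 230 remained so without both libraries of highest background, and Ntrk2 did not (adjusted p = 0.17). Without MEKi with 4OHT b and MEKi a, which are those libraries, the log2 fold change was -2.1 for Enox1 (adjusted p = 5.3e-05), -1.96 for Zfp423 (adjusted p = 0.00011), -1.03 for Etv6 (adjusted p = 1.6e-06), -0.87 for Rbpj (adjusted p = 1.6e-05) and -1.26 for Cdk6 (adjusted p = 4.4e-08). Since background still differed between the groups kept, these values cannot tell its part in the falls.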

How the data were processed

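RNA labelled with ethynyl uridine was captured with the Click-iT kit after DNase treatment and made into libraries with the NEBNext Ultra 2 kit, per the labels' protocols. Per the submitters' processing notes, the tools were STAR and featureCounts and the build mm10; for their versions, the annotation, the feature type and the strand setting no source used here gives a value. The authors deposited raw counts per gene symbol, 1 column per library and no normalization. Because the strand setting is unknown, reads of a gene and of one that overlaps it on either strand cannot be assigned. Besides the overlaps named in the report, Elk3 overlaps Cdk17, Dusp1 overlaps Ergic1, and Etv6, Max, Otx2, Polk, Idi1, Nrp2, Ntrk2, Mxd1 and Plk1 overlap predicted genes, which leaves their values uncertain. Of 25899 symbols, 25595 (98.8%) matched GENCODE M21, from which identifiers, coordinates and spans come.

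Counts of all 17 libraries were fitted in R 4.3.3 with edgeR 4.0.16 (TMM, filterByExpr by group, robust quasi-likelihood fit, 1 term per group), leaving 14907 genes and 11 residual degrees of freedom. A gene was called at an adjusted p under 0.05. The common biological coefficient of variation was 0.0977. Standard errors are the absolute log2 fold change over the square root of F and are approximate. CPM after TMM scaling are counts relative to the scaled library total, so they show no change in total new RNA. Interactions subtracted the 4OHT effect without inhibitor, or with PP1, from that with MEKi. The fit was also run on simulated counts with known changes. Those counts had the same spread for all genes and no differences of clone, background or high-count loci. They therefore cannot show how such differences affect the calls in the real libraries. Depth limits precision most for genes of few counts; 3 counts correspond to between 0.285 and 0.491 CPM in these libraries.

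Genes named are the construct genes, the 20 largest falls and the 15 largest rises among 556 held calls (average log2 CPM 1 or more, same direction in all 3 clones), passing over predicted symbols, members of 37 gene lists written from general knowledge, and Med24. Agreement of the 3 clones is thus part of the choice for the genes named by size. The average log2 CPM was taken over all 17 libraries, the 4OHT and PP1 groups included. The comparison, the members and the lists were chosen with earlier results of these data known. Some genes that this rule names are not reported here. Of the list symbols, those under the filter on low counts were not tested. The letter in a label names the cell clone, so libraries of different groups are paired by it; after subtraction of group means, same-clone libraries of both groups correlated at -0.042, -0.147 and 0.311 across genes (clones a, b and c), and clone as a replicate block was fitted as an alternative. The other alternatives were DESeq2's size factors, library totals with and without 14 high-count loci, other filters on low counts, DESeq2 1.42.0, limma-voom (limma 3.58.1), a fit restricted to the groups compared, omission of single libraries, both libraries of highest background left out, and a 2-fold threshold. Promoter sequences are from RefSeq (GRCm38.p6), with motifs searched on both strands.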

Additional observations from a re-analysis of the deposited data

Results flagged for a closer look

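The measured 4OHT effect differed between settings, tested as an interaction (edgeR quasi-likelihood, adjusted p under 0.05), for 6022 genes between MEKi and no inhibitor and for 1829 genes between MEKi and PP1. Any difference in time with MEKi is part of the effect measured under MEKi and cannot be told apart here. Among the 20 falls and 15 rises named for their size, 18 were called in the opposite direction by 4OHT without inhibitor. The difference itself was called for each. Over all calls with MEKi, 246 of 1140 rises (21.6%) and 280 of 1048 falls (26.7%) were opposite in this way. 4OHT without inhibitor lowered 26.3% and raised 25.7% of all genes. Held calls, from which the named genes come, were opposite for 21.4% of rises and 45.9% of falls. The naming rule used the average level over all 17 libraries. A gene low in the 6 libraries compared could thus be named through a high level in 4OHT, which favours falls that rise without inhibitor. A total of 11 fell with MEKi and rose without inhibitor. The effect with MEKi minus that without inhibitor, in log2 units, was -7.79 for Spry4, -7.33 for Egr1, -5.6 for Nrp2, -5.15 for Rerg, -4.13 for Ccdc3, -4.07 for Myc, -3.99 for Etv4, -3.97 for Dusp6, -3.88 for Id3, -2.6 for Zfp423 and -2.46 for Etv1.

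Ccdc3, a secreted coiled-coil protein, had 0.665, 2.196 and 1.57 CPM in MEKi with 4OHT, against 7.19, 4.91 and 6.11 CPM in MEKi, and averaged 21.6 ± 2.86 CPM in 4OHT and 5.12 ± 0.434 CPM in DMSO. Nrp2 averaged 584 ± 46.7 CPM in 4OHT and 47.8 ± 0.732 CPM in DMSO, where its level under MEKi had been 9.47 ± 2.52 CPM with 4OHT and 37.6 ± 7.74 CPM without.

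The other 7 rose with MEKi and fell without inhibitor. Their differences were 3.01 for Padi2, 2.95 for Rgma, 2.55 for Cacng5, 1.95 for Tmem205, 1.79 for Ebf4, 1.64 for Ttll1 and 1.45 for Zfp385a. Rgma averaged 5.07 ± 1.82 CPM in 4OHT and 21.1 ± 4.04 CPM in DMSO (mean ± SD, n = 3 and 2).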

How the results depend on the processing

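Among 160 named genes, 140 were called. Of these, 87 were called under all 17 alternatives, 53 lost the call under at least 1 and none reversed, while 9 genes not called gained a call. The 2188 calls became 1130 with library totals (937 higher and 193 lower), 1051 without both libraries of highest background (528 and 523), and between 1380 and 1980 with 1 library left out (higher between 634 and 874, lower between 710 and 1106). MEKi with 4OHT c (1437) and MEKi a (1380) moved the count by over 1.5 times, and the count of rises also moved that far without MEKi with 4OHT a (682). A 2-fold threshold left 204. With clone as a replicate block 2767 were called (1457 higher and 1310 lower); among the named genes Bbc3, Esrrb, Insig1 and Srebf2 gained a call and no other call changed. With the block in only the groups compared 1670 were lower. The paired deviations gave no common sign, although the labels give the pairing. For the difference from 4OHT without inhibitor, library totals gave 4754 higher and 742 lower, totals without the high-count loci 5028 and 1543, and a 2-fold threshold 2572 in all. For the difference from PP1 these were 514 (235 higher and 279 lower) with library totals, 1182 and 681 with totals without the high-count loci, and 591 at 2-fold. The cause of these shifts was not tested. Sign changes were seen in 4 genes that had not been called: Fos (0.0518) and Pou5f1 (0.0613) with library totals, Fos with limma-voom (0.0363), and Fos (0.46), Mapk3 (-0.20) and Junb (-0.11) without both libraries of highest background. With 1 library left out, Fos lay between -0.39 and 0.41, Mapk3 between -0.0591 and 0.43, Junb between -0.037 and 0.16 and Pou5f1 between -0.28 and 0.10. Depth limits genes such as Id3, measured from 3 to 5 counts in MEKi with 4OHT.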

Other observations

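Med24, a Mediator subunit, had 53.1, 61.7 and 64.4 CPM in MEKi with 4OHT, against 3185, 80.96 and 280.2 CPM in MEKi. With MEKi a left out, the log2 fold change was -1.61 (adjusted p = 0.063), where all libraries gave -4.31 (adjusted p = 0.019), and 7 of 17 alternative analyses did not call it.

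Enpp3, an ectonucleotide pyrophosphatase, had 3.99, 1.797 and 2.35 CPM in MEKi with 4OHT, against 11.7, 11.1 and 11.1 CPM in MEKi, and Tfpi, an inhibitor of blood coagulation, had 5.32, 5.19 and 2.45 CPM in MEKi with 4OHT and 17.4, 20.4 and 14.7 CPM in MEKi. Both were lower in every MEKi with 4OHT library (adjusted p = 3.8e-06 and 4e-05). Efna3, an ephrin, had 18.05, 21.2 and 17.4 CPM in MEKi with 4OHT and 9.46, 11.8 and 8.64 CPM in MEKi, and Ttll1, a tubulin-modifying enzyme, had 14.4, 13.6 and 12.4 CPM in MEKi with 4OHT and 6.69, 7.03 and 7.18 CPM in MEKi. These rose (adjusted p = 0.0003 and 0.0013), in all clones as the naming rule required. Nqo1, a NRF2 target, had 88.1, 79.2 and 94.1 CPM in MEKi with 4OHT and 55.4, 64.4 and 69.2 CPM in MEKi, a held rise (0.47 ± 0.10, adjusted p = 0.0023), the 1 rise in the NRF2 list.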
